A study of Homo sapiens with 4 samples.

Results

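The miRNAs described here are 10 mature miRNAs from 8 precursors on chromosome 14q32, the stretch from MIR493 to MIR136 that lies just downstream of the long noncoding RNA gene MEG3. They were taken by name from a table of 2656 human mature miRNAs, and all 10 were listed there. The table counts small RNA-seq reads in cortical interneurons differentiated from the H1 human embryonic stem cell line. Ethanol-exposed cells (2 libraries) were kept for 7 days in neuronal maturation medium with roughly 50 to 100 mM ethanol and then for a further day without it, and unexposed cells (2 libraries) were kept for 7 days in that medium without ethanol. Every library came from this 1 cell line, differentiated by a protocol of neural induction and ventral patterning. The labels and the study's methods give duplicate treatments and do not say that the duplicates were separate differentiations, so the P-values measure the spread between these libraries, which may be partly technical.

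MEG3 and the miRNAs beside it belong to an imprinted domain, in which each gene is read from only 1 parental chromosome. The maternal chromosome makes the noncoding RNAs, including MEG3 and the miRNA precursors, while the paternal chromosome makes protein-coding genes such as DLK1 and RTL1. Part of the miRNAs are cut from a transcript antisense to RTL1, a retrotransposon-derived gene needed in placenta and muscle, and can therefore pair with RTL1 mRNA along their whole length. The miRNAs of this domain are known for their expression in brain.

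The mature sequences are shown because the position and the pairing of each miRNA follow from them. Each is written from its 5′ end, and the capitals mark the seed (bases 2 to 8), the part that pairs first with a target. All 10 were matched by name to RefSeq entries on GRCh38.p14. The submitters' processing notes name hg19, so the positions are those of the RefSeq entries and not of the deposited table. MIR493, MIR337 and MIR665 lie upstream of RTL1 in the direction of the plus strand, which carries the miRNAs. RTL1 is read from the other strand, so in its own direction they lie downstream of it. Their hairpins are at chr14:100869060-100869148, chr14:100874493-100874585 and chr14:100875033-100875104 on the plus strand. They gave 4 members:
hsa-miR-493-5p: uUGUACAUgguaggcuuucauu
hsa-miR-493-3p: uGAAGGUCuacugugugccagg
hsa-miR-337-3p: cUCCUAUAugaugccuuucuuc
hsa-miR-665: aCCAGGAGgcugaggccccu

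The other 6 members come from 5 precursors on the plus strand opposite the coding sequence of RTL1. The mature positions run from miR-431-5p at chr14:100881026-100881046 to miR-136-3p at chr14:100884750-100884771, with miR-127-3p at chr14:100883035-100883056 between them:
hsa-miR-431-5p: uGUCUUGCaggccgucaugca
hsa-miR-433-3p: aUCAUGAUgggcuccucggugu
hsa-miR-127-3p: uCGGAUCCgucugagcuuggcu
hsa-miR-432-5p: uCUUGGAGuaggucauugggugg
hsa-miR-136-5p: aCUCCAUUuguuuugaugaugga
hsa-miR-136-3p: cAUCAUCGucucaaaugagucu

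The 10 mature sequences spanned 15.7 kb and were intronic to AL117190.1, a noncoding gene on the same strand in GENCODE 29. The members had 10 distinct seeds, and 0 other mature miRNAs of the table with a RefSeq entry (2367 were matched) carried any of them, so none belongs to a seed family within this table. They were 20 to 23 bases long, and 5 began with U, against 36.8% of the matched miRNAs in the table. Their GC content ran from 34.8% to 70.0% with a median of 53.4%, near the 52.2% of the matched miRNAs. Each of the 6 antisense members had a full-length complement in both RTL1 transcripts of GENCODE 29, and the 4 upstream members had none there. The complement of miR-127-3p, shown as the example because it was the most abundant member, lies within the coding sequence:
RTL1 site for miR-127-3p: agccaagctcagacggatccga

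The libraries held between 12100425 and 24858230 counts, and each exposed library was deeper than each unexposed one, so depth and exposure cannot be told apart. A count of 0 allows up to 3 counts, which came to between 0.121 and 0.248 CPM (counts scaled to a common total) depending on the library, and intervals and floors given here cover counting error only. The label of the cells was checked against miRNA markers. Summed over 7 neuronal markers (among them miR-124-3p, miR-9-5p and miR-128-3p, all present) the level was 298600 to 479289 CPM. Most of this sum was miR-9-5p (157352 to 254022 CPM) and miR-7-5p (79250 to 187070 CPM), while miR-124-3p was at 2190 to 5406 CPM. The 8 pluripotency markers summed to between 2.42 and 3.89 CPM, with miR-367-3p, miR-371a-3p and miR-373-3p at 0 counts in every library. Of 5 blood markers, summed to at most 0.986 CPM, miR-142-3p and miR-223-3p were at 0. All 5 mesenchymal and all 3 oligodendrocyte markers had counts.

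The cluster was a minor part of these libraries, and miR-127-3p made up most of it. Scaled by TMM, which sets libraries to a common level by the bulk of their miRNAs, the 10 members summed to 81.1 and 74.0 CPM with ethanol and to 74.6 and 141 CPM without it. Unexposed replicate 2 therefore stood apart at 1.89 times the level of unexposed replicate 1, while the exposed libraries differed by 1.10 times. miR-127-3p took 71.0% and 64.8% of the members' counts in exposed libraries, and 66.8% and 64.9% in unexposed ones. In bulk cultures such as these, fewer cells that make a miRNA and less of it per cell cannot be told apart.

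**Figure D1:**
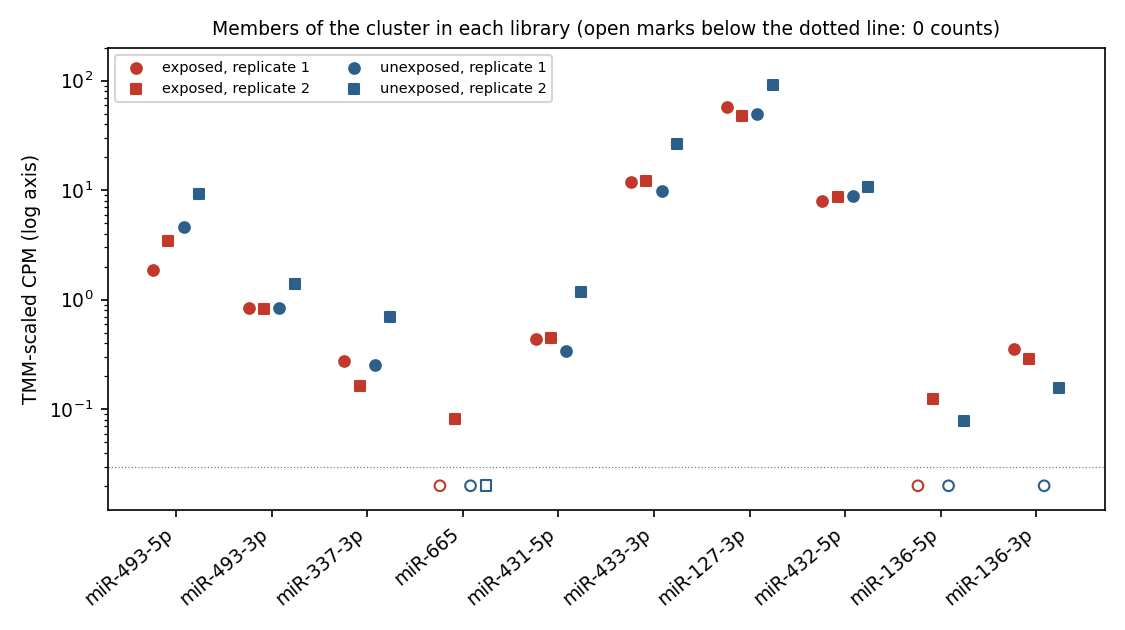
TMM-scaled CPM (log axis) of the 10 members in the order of their position, with 1 mark per library (red for exposed, blue for unexposed, circles for replicate 1, squares for replicate 2). Open marks below the dotted line stand for 0 counts. Unexposed replicate 2 is the highest mark for 7 of the 10 members, and the exceptions, miR-665, miR-136-5p and miR-136-3p, had at most 9 counts in any library.

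Ordered by the mean over the 4 libraries, miR-127-3p (61.7 CPM) was followed by miR-433-3p (15.0 CPM), miR-432-5p (9.01 CPM), miR-493-5p (4.78 CPM) and miR-493-3p (0.975 CPM). Then came miR-431-5p (0.598 CPM), miR-337-3p (0.349 CPM), miR-136-3p (0.200 CPM), miR-136-5p (0.0502 CPM) and miR-665 (0.0205 CPM). These levels are compared between miRNAs of nearly equal length, and how well each sequence is taken up into a library was not measured. Only 2 steps of this order separated all libraries: the lowest library of miR-127-3p (47.9 CPM) was above the highest of miR-433-3p (26.3 CPM), and the lowest of miR-493-5p (1.86 CPM) above the highest of miR-493-3p (1.40 CPM). All other neighbours overlapped in their range, although miR-433-3p was above miR-432-5p, and miR-432-5p above miR-493-5p, within each of the 4 libraries. The levels did not follow position. miR-136-5p, from the precursor next to miR-432-5p, was detected with 3 counts in exposed replicate 2 and 1 count in unexposed replicate 2 alone.

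**Figure D2:**
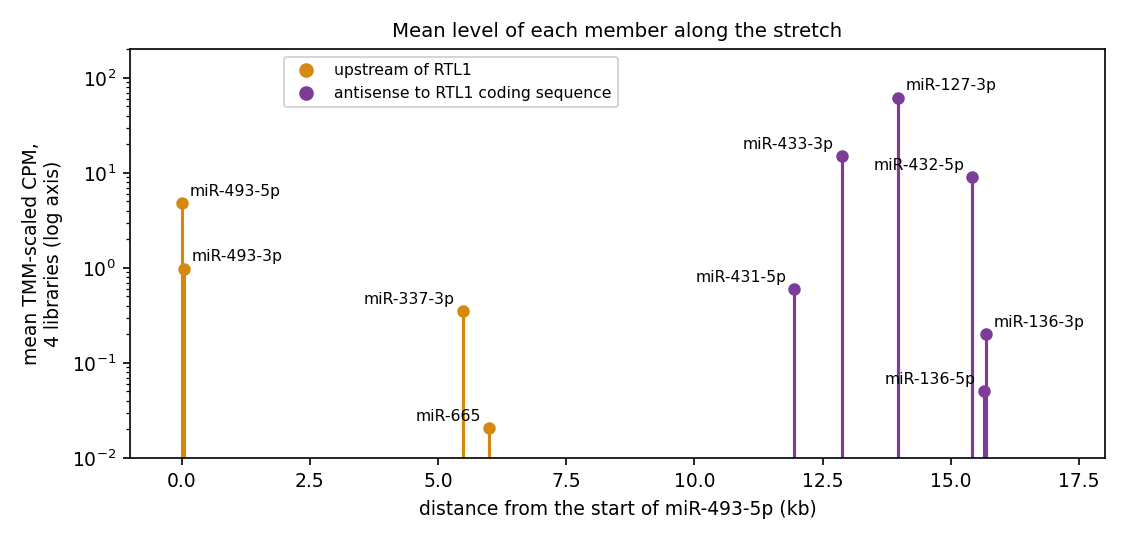
Mean TMM-scaled CPM over the 4 libraries (log axis) against the distance in kb of each mature miRNA from the start of miR-493-5p. Colours separate the 4 members upstream of RTL1 along the plus strand from the 6 antisense to its coding sequence. The tallest line is miR-127-3p, at 13.96 kb, and miR-136-5p and miR-136-3p at the far end are over 10 times lower than miR-432-5p beside them.

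The study's question for these cells was which miRNAs change with ethanol. Of the 10 members 5 passed the filter on low counts, each with at least 10 counts in all 4 libraries, and the other 5 did not. All 5 that were tested had a lower mean in exposed cells, as did 442 of the 863 miRNAs tested in all. Of these 5 members 1, miR-493-5p, was past the thresholds used by the study (absolute fold change over 2 and unadjusted P under 0.05). The study itself named miR-493-5p among the miRNAs that were lower in exposed cells past these thresholds. Over all 863 miRNAs tested, 20 (2.32%) were past both thresholds and 39 (4.52%) had an unadjusted P under 0.05. The median log2 fold change was -0.45 for the 5 members and -0.010 for all miRNAs tested. The members' median was -0.071 without unexposed replicate 2 and -0.80 without unexposed replicate 1. These signs are not independent of each other: unexposed replicate 2 was the highest library for each of the 5.

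miR-493-5p was the member past both thresholds. With ethanol it had 47 and 83 counts, and without ethanol 55 and 118 counts. Scaled by TMM these were 1.86 and 3.41 CPM against 4.66 and 9.17 CPM. The groups did not overlap, which held for 33.6% of all miRNAs tested, and the replicates of each group differed by nearly 2-fold. Exposed cells averaged 2.64 ± 1.09 CPM (SD, n = 2) and unexposed cells 6.92 ± 3.19 CPM (SD, n = 2). The log2 fold change was -1.39, with a standard error of 0.44. By edgeR's quasi-likelihood model the unadjusted P was 0.0138 and the adjusted p over all miRNAs 0.922, and a two-sided exact permutation test gave 0.33, the smallest p that 2 libraries against 2 allow.

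The gap between the groups was narrow for miR-493-5p at its nearest libraries. Before TMM scaling exposed replicate 2 was at 3.34 CPM (95% Wilson interval 2.69 to 4.14) and unexposed replicate 1 at 3.95 CPM (3.03 to 5.13), and these intervals overlap. With unexposed replicate 2 left out miR-493-5p changed by -0.86 on the log2 scale, which is under a 2-fold change, and with unexposed replicate 1 left out by -1.81.

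The other arm of the same precursor, miR-493-3p, had 21 and 20 counts in exposed and 10 and 18 counts in unexposed libraries, or 0.833 and 0.822 CPM against 0.848 and 1.40 CPM after scaling. Of these values 3 were nearly equal and only unexposed replicate 2 was higher. Its log2 fold change was -0.45 (standard error 0.40, unadjusted P = 0.290 in edgeR). The ratio of 5p to 3p counts, from which scaling cancels, was 2.24 and 4.15 in exposed and 5.50 and 6.56 in unexposed libraries. The 5p arm was thus the more abundant in every library, and its excess was lower in both exposed libraries. These ratios rest on 10 to 21 counts of miR-493-3p per library, and no interval for their counting error was made. The mean log2 ratio was lower by 0.96 in exposed cells (1.58 against 2.54), with a two-sided exact permutation p of 0.33. Without exposed replicate 1, which had the lowest ratio, the difference was -0.51, and without exposed replicate 2 it was -1.40.

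Of the 3 tested members antisense to RTL1, miR-433-3p had the largest ratio between the unexposed libraries. It had 299 and 295 counts in exposed and 116 and 338 counts in unexposed libraries, or 11.9 and 12.1 CPM against 9.83 and 26.3 CPM. The exposed libraries lay between the unexposed ones, which differed 2.66-fold. Its log2 fold change of -0.59 (standard error 0.44) had an unadjusted P of 0.213 in edgeR and an exact permutation p of 1. Without unexposed replicate 2 it was 0.25, and without unexposed replicate 1 it was -1.14 (unadjusted P = 0.000456 in edgeR), so the direction was set by which unexposed library was compared.

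miR-127-3p, the most abundant member, had 1452 and 1167 counts in exposed and 588 and 1178 counts in unexposed libraries. These were 57.6 and 47.9 CPM against 49.9 and 91.6 CPM, with unexposed replicate 1 between the exposed libraries. The log2 fold change was -0.42 (standard error 0.32, unadjusted P = 0.229 in edgeR, exact permutation p = 0.667). It was 0.044 without unexposed replicate 2 and -0.80 without unexposed replicate 1. Its 5p arm, miR-127-5p, had 23, 17, 9 and 9 counts (exposed replicates, then unexposed), 1.31% of the counts of both arms over all libraries (95% Wilson interval 1.01 to 1.68%). Its change was 0.14 on the log2 scale, within its standard error of 0.41.

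miR-432-5p was the steadiest of the tested members. It had 200 and 210 counts in exposed and 104 and 137 counts in unexposed libraries, which came to 7.93 and 8.63 CPM against 8.82 and 10.6 CPM. The groups did not overlap, but exposed replicate 2 and unexposed replicate 1 were less than 0.2 CPM apart. Its log2 fold change was -0.23 (standard error 0.28, unadjusted P = 0.433 in edgeR, exact permutation p = 0.33). The other arm, miR-432-3p, had 0 counts in all libraries.

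**Figure D3:**
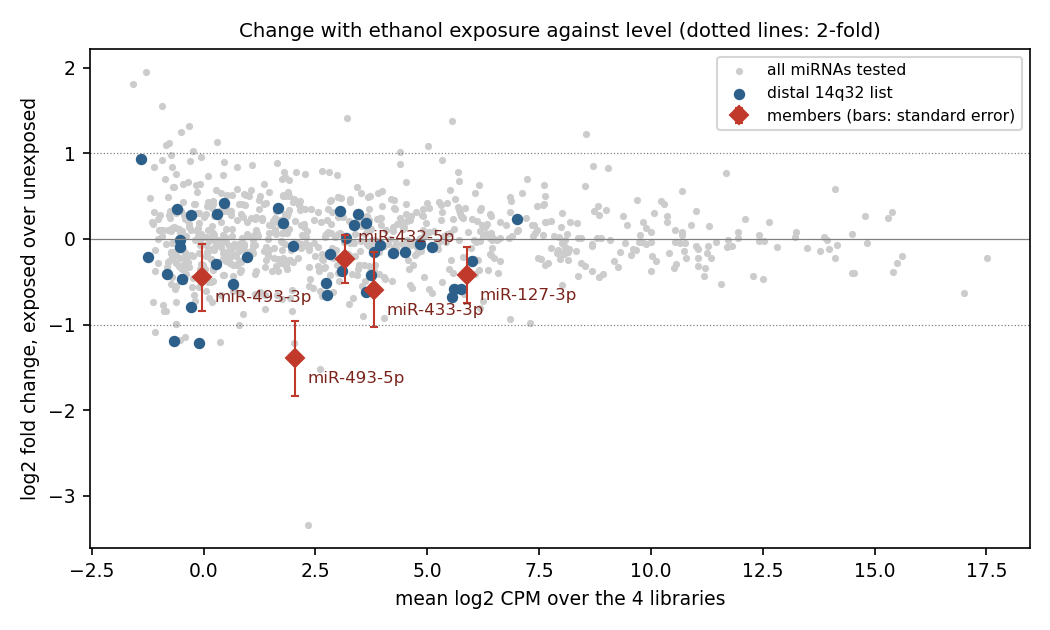
Log2 fold change (exposed over unexposed, edgeR) against the mean log2 CPM over the 4 libraries for the 863 miRNAs tested (grey), the 41 tested miRNAs of the distal 14q32 list (blue) and the 5 tested members (red diamonds, with bars for the standard error). miR-493-5p lies below the dotted 2-fold line at -1.39, and the other tested members lie between -0.59 and -0.23.

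The remaining members were too rare for the test. For miR-431-5p both exposed libraries held 11 counts, while the unexposed ones held 4 and 15, and the unexposed values lay on both sides of the exposed ones. miR-337-3p had 7 and 4 against 3 and 9 counts, or 0.278 and 0.164 against 0.254 and 0.699 CPM after scaling, so that unexposed replicate 1 lay between the exposed libraries. With counts and library totals pooled within each group, the exposed libraries held 0.640 times as much miR-431-5p (exact 95% interval 0.331 to 1.25) and 0.507 times as much miR-337-3p (0.203 to 1.26) as the unexposed libraries. Both intervals include 1, so a change was not detectable at this depth. Among their other arms, miR-431-3p was about as frequent as miR-431-5p, with 32 against 41 counts over all libraries, while miR-337-5p had 3 counts against 23 for miR-337-3p.

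miR-136-3p was arranged the other way round. It had 9 and 7 counts with ethanol and 0 and 2 counts without. The count of 0 in unexposed replicate 1 allows up to 0.215 CPM. Before TMM scaling unexposed replicate 2 was at 0.165 CPM (95% Wilson interval 0.0453 to 0.603). The exposed libraries were at 0.405 CPM (0.213 to 0.770) and 0.282 CPM (0.136 to 0.581), and these intervals overlap that of unexposed replicate 2. The ratio of exposed to unexposed was 4.43 with an exact 95% interval from counting error of 1.04 to 39.7. With no filter on low counts edgeR gave it an unadjusted P of 0.0573. miR-136-5p (0, 3, 0 and 1 counts) and miR-665 (0, 2, 0 and 0 counts) were at or under the floor in every library, and no fold change is given for them. Of the miRNAs within MEG3 itself, miR-770-5p (in an exon) had 0 counts and miR-2392 (in an intron) had at most 1 count per library.

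The members were next compared across libraries regardless of exposure. In all 5 that were tested unexposed replicate 2 was above unexposed replicate 1, as it was for 450 (52.1%) of all miRNAs tested. The ratio of these libraries ran from 1.21 for miR-432-5p to 2.66 for miR-433-3p, and the median log2 difference was 0.88 for the members against 0.031 over all miRNAs tested. For 4 of the 5 members the difference between the unexposed libraries was larger than the change with exposure, and miR-493-5p was the exception (0.97 against 1.39 on the log2 scale). For all miRNAs tested the former was larger in 558 of 863. Over the same libraries the 5 mesenchymal markers summed to 102 and 111 CPM in unexposed replicates 1 and 2, and the 3 oligodendrocyte markers to 76.0 and 116 CPM. The 7 neuronal markers summed to 479289 and 360619 CPM in these libraries, but single markers went both ways. Unexposed replicate 2 was the higher for 2 of these 7, among them miR-128-3p (29351 and 48812 CPM). For miR-9-5p it was the lower (254022 and 157352 CPM). Among the markers that were tested, it was the higher for 2 of 4 mesenchymal and 2 of 2 oligodendrocyte ones. Between the groups, 4 of the 7 neuronal markers had a higher mean in exposed cells and 3 a lower one. Exposed and unexposed libraries did not overlap for 2 of the 7, against 33.6% of all miRNAs tested. These were miR-124-3p (5406 and 3362 CPM in exposed, 2948 and 2190 CPM in unexposed libraries) and miR-7-5p (79250 and 135236 against 187070 and 146053 CPM). What part the marker levels have in the result was not tested.

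**Figure D4:**
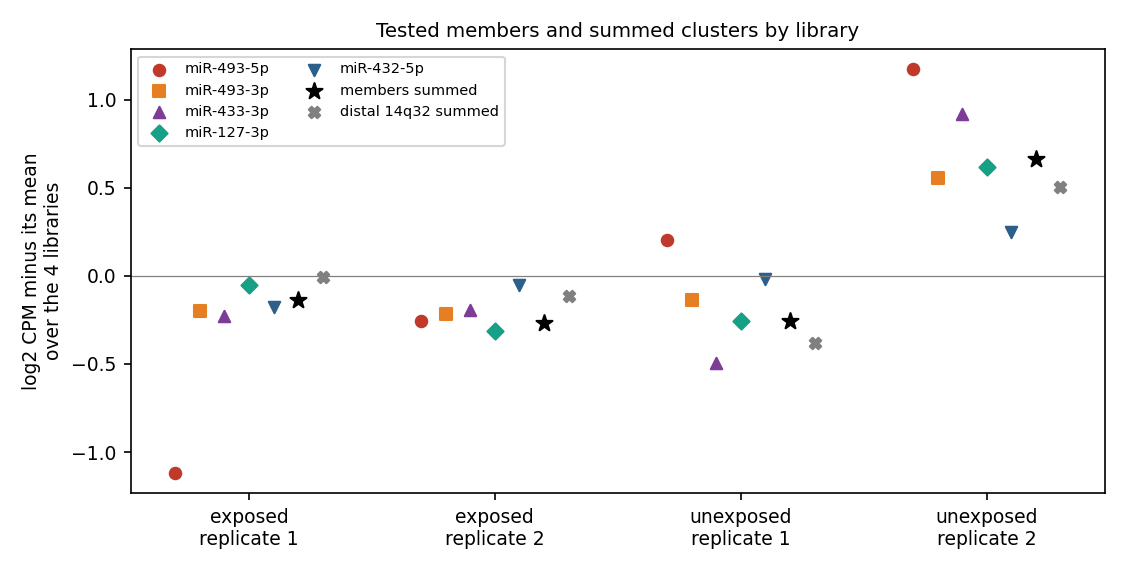
Log2 CPM minus its mean over the 4 libraries for the 5 tested members, the sum of the 10 members (stars) and the sum of the distal 14q32 miRNAs (crosses), by library. All marks of unexposed replicate 2 are above 0, at 0.25 to 1.17, and miR-493-5p in exposed replicate 1 is the lowest mark at -1.12.

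The nearest comparison within the imprinted domain is the distal cluster, here 76 mature miRNAs listed by name from miR-370 to miR-656, which begins 26.4 kb after miR-136-3p. Of these 67 had counts and 41 were tested. Lower means in exposed cells were found for 28 of the 41, against 442 of all 863 miRNAs tested, and higher means for 13. The median log2 fold change of the 41 was -0.15. Unexposed replicate 2 was above unexposed replicate 1 in 34 of the 41, with a median log2 difference of 0.57. The distal list thus shared the high level in unexposed replicate 2, at a summed 876 CPM against 476 CPM in unexposed replicate 1 and 617 and 571 CPM in the exposed libraries.

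The most abundant distal miRNAs did not move with 1 sign. miR-323a-3p had a log2 fold change of 0.23, with 159 and 125 CPM against 85.7 and 156 CPM. For miR-379-5p it was -0.25 and for miR-370-3p -0.58, and none of these 3 had an unadjusted P under 0.05 in edgeR. Past both thresholds were 2 of the 41, against 20 (2.32%) of all 863 miRNAs tested, a count too small to be read as a result about the cluster. They were miR-376a-3p (13 and 17 against 12 and 23 counts, log2 fold change -1.21, unadjusted P = 0.0223 in edgeR) and miR-1185-2-3p (11 and 9 against 9 and 14 counts, -1.19, unadjusted P = 0.0268 in edgeR). Their adjusted p was 0.922. Both have close copies within the cluster, so the split of reads between copies is uncertain. miR-1185-2-3p passed the filter on low counts only through the unexposed libraries (0.646 and 1.16 CPM before TMM scaling, against 0.495 and 0.362 CPM in exposed ones). Its lower level in exposed cells was therefore favoured by the filter.

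The share of the members among all counts of the 2 clusters, from which scaling cancels, was nearly the same in replicates. With ethanol it was 11.6% and 11.5%, and without ethanol 13.6% and 13.9%. The groups did not overlap, although the unexposed libraries differed nearly 2-fold in the level of both clusters. Such a separation held for the levels of 33.6% of all miRNAs tested. On the log2 scale the ratio of members to distal miRNAs was lower by 0.28 in exposed cells. No test was made, since the value is a sum over chosen members. The groups also did not overlap without miR-127-3p (3.68% and 4.37% against 4.95% and 5.36%) or without miR-493-5p (11.4% and 11.0% against 12.8% and 13.1%). Without miR-323a-3p on the distal side the shares were 15.0% and 14.2% against 16.1% and 16.4%. These settings were chosen after the shares were seen, and they reuse the counts of the full lists, so they add no separate support.

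**Figure D5:**
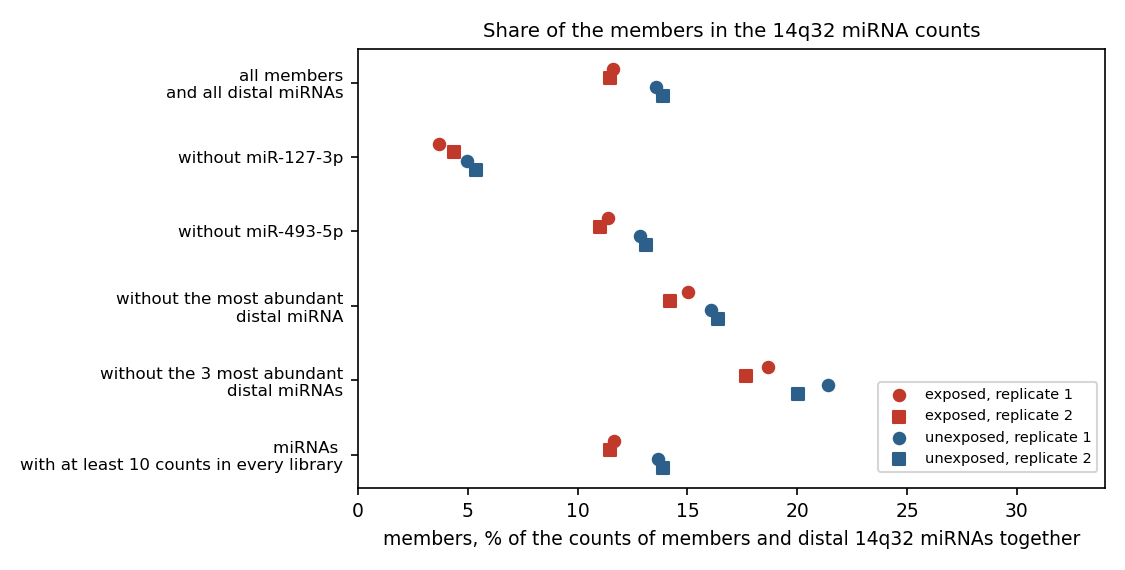
Counts of the members as a percentage of the counts of members and distal 14q32 miRNAs together, for the full lists and 5 reduced ones, with 1 mark per library. For the full lists the exposed libraries lie at 11.6% and 11.5% and the unexposed libraries at 13.6% and 13.9%. The groups stay apart in each row, but the rows share counts and are not separate results.

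Outside 14q32, the 5 tested miRNAs whose profile over the 4 libraries was nearest to that of the summed members were miR-363-3p, miR-10395-3p, miR-374b-5p, miR-18a-5p and miR-218-5p. Likeness was the mean absolute difference of log2 CPM after centring, among 377 miRNAs with a mean log2 CPM of at least 3. It was 0.059 for miR-363-3p and between 0.11 and 0.13 for the others. The median was 0.40 over the candidates and 0.22 over the 19 distal miRNAs at that level. The 5 were picked as the smallest of the 377, so they lie under these medians by choice. Of the 19 distal miRNAs, 2 were at least as near as the last of the 5. miR-363-3p had 392.4 and 340 CPM in exposed and 353 and 598 CPM in unexposed libraries. These 5 share with the members a high level in unexposed replicate 2, and with 4 libraries such likeness is a description only. The RefSeq entries place MIR363 and MIR374B on chromosome X, MIR18A on chromosome 13, and the copies of MIR218 on chromosomes 4 and 5.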

How the data were processed

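The authors made small RNA libraries with the NEBNext kit and ran CAP-miRseq on the reads. The authors deposited raw read counts per mature miRNA for 4 libraries, without normalization. The submitters' processing notes name hg19, and the version of CAP-miRseq, the miRNA release and the handling of reads that match several miRNAs are not given in the sources used here. Groups and replicate numbers came from the sample titles. Library totals ran from 12100425 to 24858230 counts.

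From these counts, miRNAs were kept by filterByExpr (minimum count 10, minimum total 15), scaled by TMM and compared with edgeR 4.0.16 (quasi-likelihood test, no covariates, Benjamini-Hochberg over 863 miRNAs) in R 4.3.3. limma 3.58.1 (voom) and DESeq2 1.42.0 were alternatives, with other scalings and filters, the replicate number as a block, and each library left out in turn. Levels are CPM on the TMM scale unless stated, and 0.5 was added to counts before taking log2. The fit was tested on simulated data. Replicates differed by more than counting noise (chi-square per degree of freedom 795 in exposed and 712 in unexposed cells), so none was the same library deposited again, which does not show that they were separate cultures.

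The members and lists were chosen with earlier results of these data known. Named were all members, their other arms, miR-770-5p and miR-2392, the 3 most abundant distal miRNAs and those past both thresholds, and the 5 miRNAs nearest in profile. Sequences came from RefSeq (GRCh38.p14) and gene overlaps from GENCODE 29. RefSeq entries used here held 75 of the 76 distal names.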

Additional observations from a re-analysis of the deposited data

How the results depend on the processing

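miR-493-5p kept its direction in every alternative run, and was past both thresholds except without unexposed replicate 2. Its log2 fold change lay between -1.49 (upper quartile factors) and -1.32 (library size only) under other scalings, filters and tests. Its adjusted p was 0.0389 in edgeR with at least 1 count in any library, when 1825 miRNAs were tested, and between 0.635 and 0.992 in the other fits of all libraries, and 0.000148 to 0.999 when single libraries were left out. Leaving out single libraries took the number of members past both thresholds from 0 (without unexposed replicate 2) to 3 (without unexposed replicate 1, with miR-493-5p, miR-433-3p and miR-431-5p). These counts do not share a denominator. Without unexposed replicate 1, 7 members and 977 miRNAs in all were tested, and without unexposed replicate 2, 6 members and 954 miRNAs. The main fit tested 5 members and 863 miRNAs. miR-431-5p was not tested in the main fit, and its log2 fold change without unexposed replicate 1 was -1.39. P-values of the fits without a library, and the counts based on them, rest on the assumption that the lone library of a group varies like the other group. With single libraries left out, the summed level's log2 ratio ranged from -0.86 to 0.056 and the miR-493 arm difference from -1.40 to -0.51. miR-433-3p (0.25) and miR-127-3p (0.044) turned positive without unexposed replicate 2, while without unexposed replicate 1 they were at -1.14 and -0.80, and no other tested member changed sign in any alternative. Over all miRNAs the 20 past both thresholds became 49 with at least 1 count in any library, 11 where each library had to hold 10 counts, 10 with DESeq2, and 10 to 44 with single libraries left out. The ratio of members to distal miRNAs ranged from -0.30 to -0.27. Relative to TMM, library size only moved the median log2 fold change of all miRNAs to 0.14 and upper quartile factors to -0.12, and the 5 tested members were lower in exposed cells under each.

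The replicate numbers did not pair the libraries (correlation of replicate differences -0.19 across miRNAs). With the replicate number as a block the number of members past both thresholds was 1 and their median log2 fold change -0.42, and no member's call changed. A block with the numbers crossed, added later once the values were known, also gave 1. No arm ratio is given for miR-136, since miR-136-5p had at most 3 counts in any library.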
